A study of Equus caballus with 10 samples.

Results

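The genes described here encode the proteins of the mitochondrial ribosome, and their transcripts were measured in ejaculated spermatozoa of stallions (Equus caballus). Members were chosen by symbol, as MRPL or MRPS followed by a number and, for some, a letter. Where a gene had several probe sets with 1 gene symbol, the one with the highest mean was to be used, but every member had 1 probe set. This gave 66 of the 16661 genes that the arrays measured with such probe sets. By the subunit that holds the protein, 24 belong to the small subunit and 42 to the large subunit. MRPS18A and MRPS30 are counted with the large subunit, where their proteins sit in spite of their symbols. Of a list of 78 symbols of the family, 12 (MRPL15, MRPL21, MRPL22, MRPL30, MRPL33, MRPL41, MRPL44, MRPL53, MRPL57, MRPS2, MRPS17 and MRPS36) are not analysed here.

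Sperm of 10 warmblood stallions was measured on Affymetrix arrays, 1 per stallion, to compare seasons and fertility classes. Stallions 7, 8 and 10 were labelled spring with low fertility (n = 3), stallions 5 and 6 autumn with low fertility (n = 2), stallions 3, 4 and 9 spring with high fertility (n = 3), and stallions 1 and 2 autumn with high fertility (n = 2). The labels give no experimental treatment and no genotype, and describe all animals as of breeding age and housed at an insemination centre, with 4 ejaculates taken from each in the breeding season. The last statement also covers the stallions labelled autumn, the title of stallion 9 begins like the autumn titles although its season field says spring, and the basis of the fertility classes is not stated in the labels. Because each array is a different stallion, p-values measure the spread between animals together with any technical spread. RNA came from whole sperm samples, so fewer cells of a kind and less RNA per cell cannot be told apart.

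The mitochondrial ribosome translates the few messenger RNAs encoded by mitochondrial DNA, which code for core subunits of the respiratory chain and of ATP synthase. Its small subunit decodes the messenger RNA and its large subunit joins the amino acids. All of its proteins are encoded in the nucleus, made on cytosolic ribosomes and imported into mitochondria, and many of them have no counterpart in bacterial ribosomes. Roles of single proteins are given as known from human and other mammalian mitochondria. In sperm the mitochondria are wrapped around the midpiece of the flagellum, and the nucleus of mature sperm is largely silent in transcription, so the RNA of these cells is mostly carried over from earlier stages.

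All values are log2 signals as the authors deposited them, with a floor of 4, and a difference of 1 is a 2-fold difference in signal. Array medians over all 30559 probe sets ran from 5.07 to 5.49, and stallions 10, 9 and 2 had the lowest, 5.08, 5.07 and 5.10. Over the 45 pairs of arrays the correlation across probe sets lay between 0.791 and 0.918, and no 2 arrays were identical. All 14 sperm markers measured had means between 7.48 (ACTL7A) and 12.79 (PRM1, a protamine that packs sperm DNA). Means of the markers of other cells were lower, at 4.24 (CD3E) to 6.40 (PTPRC) for the 7 leukocyte markers measured, 5.28 to 5.63 for 4 epithelial markers, 4.54 to 6.78 for 8 meiotic markers and 4.80 to 6.97 for 6 markers of somatic testis cells. None of these lists was at the floor throughout, and the part of other cells in the signals was not tested.

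As a group, transcripts of mitochondrial ribosomal proteins gave low to moderate signals in stallion sperm. The median of the 66 gene means was 5.67, against 5.47 for all 16661 genes, 6.76 for 69 cytosolic ribosomal protein genes and 10.26 for the sperm markers. It was 5.57 for the leukocyte, 5.43 for the epithelial, 5.20 for the somatic testis and 4.93 for the meiotic markers. Signals near the level of the members were thus also seen for markers of other cells. A mean of at least 7 was reached by 5 members (7.58%, against 8.34% of all genes), 22 lay between 6 and 7, 25 between 5 and 6, and 14 (21.2%, against 26.7% of all genes) below 5. On all 10 arrays, 62 members stayed off the floor, which is 93.9% of them, against 90.6% of all genes. The signal lay above the median of its array on every array for 29 members (43.9%, against 33.7% of all genes) and below it on every array for 8 (12.1%, against 18.1% of all genes). Binding strength varies from probe set to probe set, so these levels describe the measurement and do not rank the abundance of the transcripts.

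Small-subunit genes had a median mean signal of 5.75. MRPS24, a protein with a bacterial counterpart, averaged 7.75 ± 0.39 (SD, n = 10), with a range of 7.29 to 8.40. MRPS5, also with a bacterial counterpart, averaged 7.44 ± 0.84 and ranged from 5.95 to 8.30, and MRPS28 averaged 6.75 ± 0.66 and ranged from 5.49 to 7.58. All 3 genes were above the array median on every array, but the last 2 spread over about 2 log2 units between stallions. At the low end of this subunit, MRPS10 was below the array median on all arrays. The paralogs MRPS18B and MRPS18C, which sit in the small subunit, averaged 5.73 ± 0.25 and 5.70 ± 0.45, and their large-subunit paralog MRPS18A averaged 6.53 ± 0.62.

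Large-subunit genes had a median mean signal of 5.49 and held both the highest and the lowest member. MRPL43, which has no bacterial counterpart, averaged 8.54 ± 0.19 (SD, n = 10) and stayed between 8.24 and 8.81. MRPL17, with a bacterial counterpart, averaged 7.66 ± 0.16 and ranged from 7.40 to 7.85, and MRPL38, without one, averaged 7.12 ± 0.28 and ranged from 6.70 to 7.44. The SDs of these 3 genes were below the median SD of all genes, 0.335. With arrays centred on their medians the SDs were 0.294, 0.174 and 0.321, against a median of 0.313 for all genes. The lowest means were those of MRPL42 (4.44 ± 0.36), MRPL45 (4.60 ± 0.38), MRPL3 (4.65 ± 0.34), MRPL48 (4.66 ± 0.26), MRPL13 (4.70 ± 0.26) and MRPL46 (4.71 ± 0.47). MRPL45 lies near the exit of the ribosomal tunnel at the inner membrane, and MRPL3 and MRPL13 are large-subunit proteins shared with bacteria. MRPL42 and MRPL45 were at the floor in stallion 7, and MRPL3 and MRPL35 in stallion 9, where the deposited value is an upper bound. Of the 14 members with a mean below 5, 12 belong to the large subunit and 2 to the small subunit.

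**Figure D1:**
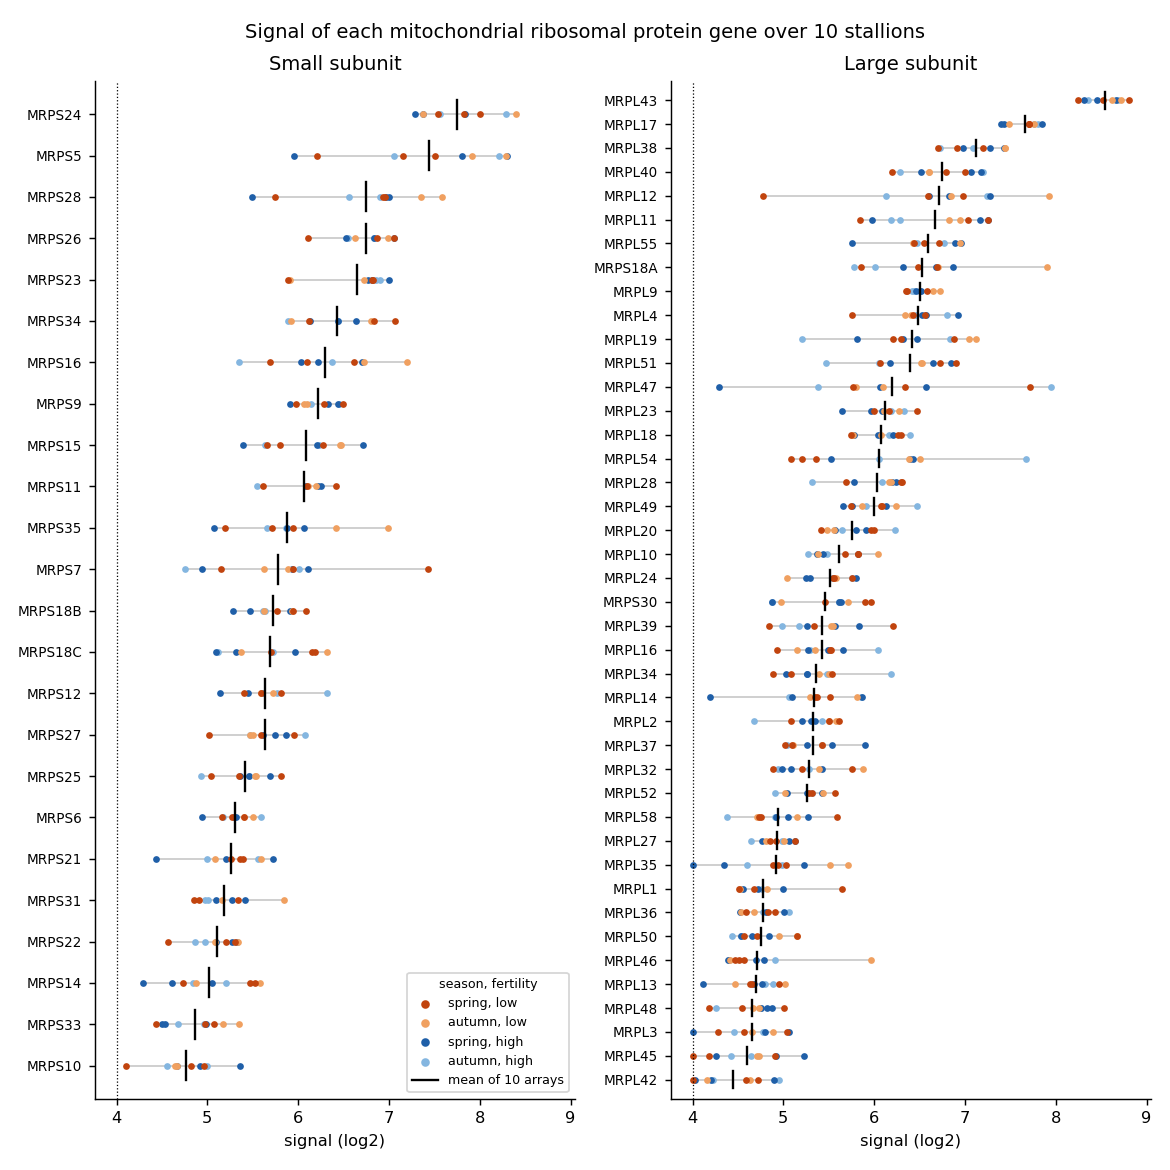
Log2 signal (horizontal axes) of each of the 66 genes in the 10 stallions, small subunit on the left and large subunit on the right. Each point is an array, coloured by season and fertility class, the black tick is the mean of 10 arrays and the dotted line is the floor of 4. MRPL43 has the highest mean and a narrow range, and MRPL47, MRPL12 and MRPS5 are among the genes with the widest ranges.

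Summed up by array, the members varied little. The median signal of the 66 genes was 5.81, 5.73 and 5.58 in stallions 7, 8 and 10 (spring, low fertility), and 5.86 and 5.59 in stallions 5 and 6 (autumn, low fertility). It was 5.70, 5.80 and 5.37 in stallions 3, 4 and 9 (spring, high fertility), and 5.78 and 5.47 in stallions 1 and 2 (autumn, high fertility). The 4 groups overlapped, with means of 5.70 ± 0.12 (SD, n = 3) in spring with low fertility, 5.72 ± 0.19 (n = 2) in autumn with low fertility, 5.62 ± 0.23 (n = 3) in spring with high fertility and 5.62 ± 0.22 (n = 2) in autumn with high fertility. On every array the median of the members lay above that of all probe sets, by 0.30 in stallion 9 to 0.52 in stallion 7. Between 40 and 48 of the 66 genes exceeded it (60.6% to 72.7%, against 57.6% to 60.2% of all genes). The median of all genes also lay above that of all probe sets on every array, by 0.17 to 0.24.

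**Figure D2:**
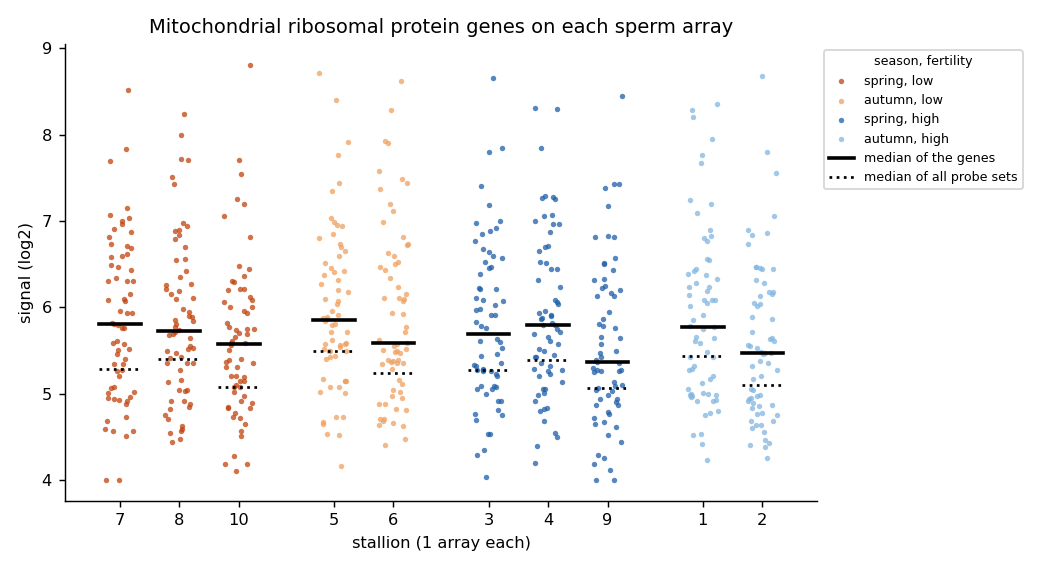
Log2 signal (vertical axis) of the 66 genes on each array (horizontal axis, stallion number), grouped by season and fertility class. Each point is a gene, the solid bar is the median of the genes and the dotted bar the median of all probe sets. The solid bars run from 5.37 to 5.86 and lie above the dotted ones on all 10 arrays. The median of all genes, which is not drawn, also lies above the dotted bars, by 0.17 to 0.24.

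The cytosolic ribosomal protein genes and the sperm markers varied more between the same arrays. The mean over the 66 members had an SD of 0.151 over the 10 arrays, against 0.380 for the cytosolic ribosomal protein genes, 0.854 for the sperm markers and 0.172 for all genes. With each array centred on its median, these SDs were 0.062, 0.273, 0.747 and 0.039. The joint signal of the mitochondrial list thus had the smaller spread of the 2 ribosomal lists, a difference that is described here and was not tested. Stallions 10, 9 and 2 had the lowest medians of the cytosolic list, at 6.33, 6.22 and 6.31, against 6.90 to 7.23 in the other 7.

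In 7 members (10.6%, against 11.3% of all probe sets and 14.9% of all genes) signals were lower in stallions 2, 9 and 10 than in each of the other 7 stallions. The same held for 30 of the 69 cytosolic genes (43.5%) and 12 of the 14 sperm markers. The 7 members were MRPL3, MRPL19, MRPL40, MRPL47, MRPS5, MRPS7 and MRPS15. MRPS5 had 5.95 to 7.06 in these 3 stallions, against 7.15 to 8.30 in the others, and MRPS7 had 4.75 to 5.15, against 5.62 to 7.43. MRPL42 went the other way, with 4.72 to 4.95 against 4.00 to 4.63, and was the 1 such member (1.52%, against 0.789% of all probe sets). With arrays centred, 1 member and 16 cytosolic genes were lower in these 3 stallions, against 3.99% of all probe sets and 5.24% of all genes. These are also the 3 arrays with the lowest overall medians, and what sets them apart was not tested. The titles of stallions 9 and 10, unlike all others, carry no number right after the group letters.

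**Figure D3:**
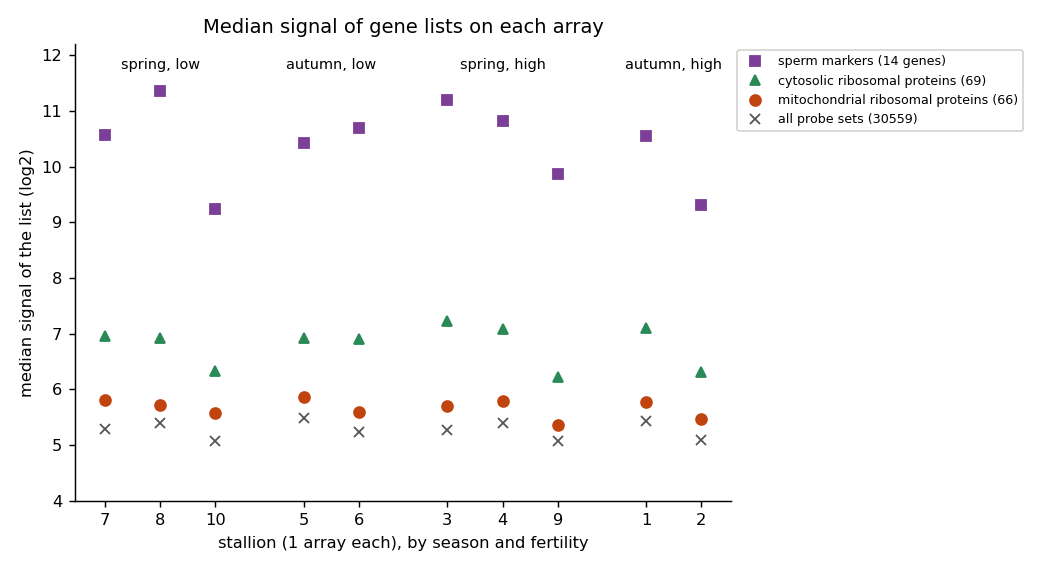
Median log2 signal (vertical axis) of 4 sets of probe sets on each array (horizontal axis, stallion number). Circles are the 66 mitochondrial ribosomal protein genes, triangles 69 cytosolic ribosomal protein genes, squares 14 sperm markers and crosses all 30559 probe sets. Squares run from 9.24 to 11.36 and triangles from 6.22 to 7.23, while circles stay between 5.37 and 5.86.

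Single genes spread about as widely as those of the whole array. The median SD of a member over the 10 arrays was 0.334, against 0.335 for all genes and 0.533 for the cytosolic genes. A range of more than 1 log2 unit was seen in 35 members (53.0%, against 54.5% of all genes) and of more than 2 in 7 (10.6%, against 10.8%). The widest was MRPL47, a large-subunit protein with a bacterial counterpart (SD 1.07), followed by MRPS5 (0.84), MRPL12 (0.83), MRPL54 (0.79) and MRPS7 (0.76). The narrowest were MRPL9 (SD 0.12, 6.35 to 6.73), MRPL17 (0.16), MRPL27 (0.16), MRPS6 (0.19) and MRPL36 (0.19), all with bacterial counterparts. Narrow spread was not a trait of that class as a whole. The median SD was 0.336 over the 39 members with a bacterial counterpart and 0.310 over the 27 without one.

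Some of the wide ranges came from 1 stallion. MRPL12, whose protein also binds the mitochondrial RNA polymerase, had 6.59, 6.98 and 4.78 in spring and 6.85 and 7.93 in autumn among low-fertility stallions, and 6.60, 7.27 and 6.82 in spring and 7.24 and 6.13 in autumn among high-fertility stallions. Its value of 4.78 in stallion 10 lay apart from the next, 6.13. MRPS7 reached 7.43 in stallion 8, against 6.11 in the next highest, and MRPL46 reached 5.96 in stallion 5, against 4.91. In 9 members (13.6%, against 10.6% of all probe sets) the highest array was at least 0.5 above the next, and in 8 (12.1%, against 9.84%) the lowest was at least 0.5 below the next. Over all genes these shares were 8.21% and 10.3%. MRPL47 had 6.34, 7.72 and 5.77 in spring and 5.80 and 6.10 in autumn among low-fertility stallions, and 6.57, 6.06 and 4.29 in spring and 7.95 and 5.38 in autumn among high-fertility stallions. All 4 groups overlapped, stallion 9 lay lowest and stallions 1 and 8 highest.

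The season comparison asked how sperm transcripts differ between spring and autumn, averaged over the fertility classes. None of the 66 genes passed the test in limma's fit across all 30559 probe sets, where 0.00327% of probe sets (1 of them) did, and their Benjamini-Hochberg adjusted p was 1. The median difference of spring minus autumn was -0.05 over the members and -0.05 over all genes. The difference was positive for 28 members (42.4%, against 41.3% of all probe sets and 40.8% of all genes) and negative for 38, and small-subunit genes (11 positive, 13 negative, median -0.04) and large-subunit genes (17 positive, 25 negative, median -0.05) both leaned to the negative side, as all probe sets did. No member separated the 6 spring from the 4 autumn stallions, against 0.19% of probe sets that were higher and 0.573% that were lower in all spring stallions. The 95% interval of the difference lay within 1 log2 unit of 0 for 59 members (89.4%, against 81.9% of all genes), with a median width of 0.49 to either side.

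Before adjustment, 3 members (4.55%, against 3.17% of probe sets) had lower means in spring at p under 0.05, and none had a higher mean (against 1.01%). Over all genes these shares were 3.24% and 0.87%. MRPL54 (probe set 15103548), a large-subunit protein without a bacterial counterpart, had 5.08, 5.36 and 5.20 in spring and 6.38 and 6.50 in autumn among low-fertility stallions. Among high-fertility stallions it had 6.39, 5.52 and 6.43 in spring and 7.67 and 6.05 in autumn. The 3 spring low-fertility stallions were the lowest of all 10. MRPL54 was the 1 member with this pattern (1.52%, against 0.452% of probe sets and 0.432% of all genes). The high-fertility seasons overlapped, and 1 stallion, number 1, stood highest by 1.17. The season difference of MRPL54 was -0.99 (SE 0.32, 95% interval -1.71 to -0.26, limma adjusted p = 1), and without stallion 1 it was -0.58.

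MRPL34 (probe set 15032643), a large-subunit protein with a bacterial counterpart, had 4.88, 5.53 and 5.08 in spring and 5.50 and 5.39 in autumn among low-fertility stallions. It had 5.26, 5.26 and 5.03 in spring and 6.19 and 5.48 in autumn among high-fertility stallions. The seasons overlapped through stallion 8, and stallion 1 was again the highest. Its difference was -0.47 (SE 0.19, 95% interval -0.91 to -0.03, limma adjusted p = 1), and -0.29 without stallion 1. MRPS35 (probe set 15096425), a small-subunit protein without a bacterial counterpart, had 5.94, 5.71 and 5.19 in spring and 6.42 and 6.99 in autumn among low-fertility stallions, and 6.07, 5.88 and 5.07 in spring and 5.66 and 5.87 in autumn among high-fertility stallions. For MRPS35 the autumn low-fertility stallions stood above all others, and the high-fertility seasons overlapped. Its difference was -0.59 (SE 0.25, 95% interval -1.16 to -0.03, limma adjusted p = 1), and -0.28 without stallions 2, 9 and 10.

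The next members by p, none of them past the test, were MRPS12, a protein of the decoding site (spring minus autumn -0.35, SE 0.17), and MRPL35 (-0.46, SE 0.24). On the positive side stood MRPL51 (0.42, SE 0.23), MRPL58, a peptidyl-tRNA hydrolase that rescues stalled ribosomes (0.26, SE 0.22), MRPS30 (0.28, SE 0.25), MRPS34 (0.28, SE 0.26) and MRPL52 (0.14, SE 0.17). Leaving out 1 stallion moved most of these values. The difference of MRPS12 was -0.21 without stallion 2, and that of MRPL51 was 0.28 without stallion 2. With stallion 9 counted in autumn, MRPL35 had -0.20 and MRPS30 had 0.47. With a term for the title format of stallions 9 and 10, MRPL51 had 0.64. MRPS30 had 0.10 without stallion 2 and 0.47 without stallion 1, and MRPS34 had 0.06 without stallion 6 and 0.50 without stallion 5. MRPL52 had 0.04 without stallion 6 and 0.25 without stallion 5. For MRPL58 it was 0.12 without stallion 10 and 0.40 without stallion 1, and the sign turned without stallions 2, 9 and 10, to -0.06. MRPL51 was the member with the clearest positive difference among high-fertility stallions, where it had 6.85, 6.65 and 6.17 in spring and 6.05 and 5.47 in autumn. Among low-fertility stallions it had 6.73, 6.90 and 6.06 in spring and 6.51 and 6.53 in autumn, which overlapped.

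The fertility comparison asked how sperm of low-fertility stallions differs from that of high-fertility stallions, averaged over the seasons. Again none of the 66 genes passed the test (limma adjusted p = 1), against 0.00327% of all probe sets. The median difference of low minus high was 0.11 over the members, 0.08 over all genes and 0.05 over all probe sets, and it was 0.005 without stallions 2, 9 and 10. It was positive for 44 members (66.7%, against 60.4% of all probe sets and 65.1% of all genes) and negative for 22, with 18 positive and 6 negative in the small subunit and 26 positive and 16 negative in the large subunit. No member separated the 5 low-fertility from the 5 high-fertility stallions, against 0.249% of probe sets that were higher and 0.105% that were lower in all low-fertility stallions. The 95% interval lay within 1 log2 unit of 0 for 53 members (80.3%, against 83.9% of all genes).

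Before adjustment, 1 member (1.52%, against 1.82% of probe sets) had a higher mean in low-fertility stallions at p under 0.05 and none a lower one (against 0.769%). Over all genes these shares were 1.91% and 0.36%. The 1 member was MRPL35 (probe set 14992130), a large-subunit protein with a bacterial counterpart. Its signal was low, with a mean of 4.92, and lay above the array median on 2 of the 10 arrays. In spring it had 4.94, 5.03 and 4.89 in low-fertility and 4.35, 5.23 and 4.00 in high-fertility stallions, and in autumn 5.71 and 5.51 in low-fertility and 4.98 and 4.60 in high-fertility stallions. The autumn classes did not overlap and the spring classes did, through stallion 4, and stallion 9 sat on the floor. The difference was 0.62 (SE 0.24, 95% interval 0.09 to 1.16, limma adjusted p = 1), and 0.41 without stallions 2, 9 and 10.

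The members next by p on the positive side were MRPL50 (low minus high 0.35, SE 0.16), MRPL19 (0.66, SE 0.31), MRPS18A (0.56, SE 0.27) and MRPS18C (0.49, SE 0.26). MRPL19, a large-subunit protein shared with bacteria, had 6.30, 6.88 and 6.21 in spring low-fertility and 7.04 and 7.12 in autumn low-fertility stallions. It had 6.47, 6.32 and 5.81 in spring high-fertility and 6.83 and 5.20 in autumn high-fertility stallions, so the classes overlapped in spring. Without stallion 2, which had the 5.20, its difference was 0.26, and without stallion 1 it was 1.07. On the negative side stood MRPL54 (-0.66, SE 0.32), MRPS23 (-0.46, SE 0.24), MRPL4 (-0.34, SE 0.20), MRPL16 (-0.28, SE 0.20) and MRPS27, a protein with pentatricopeptide repeats (-0.26, SE 0.21). These values too moved with single stallions. MRPL54 had -0.26 without stallion 1 and -1.07 without stallion 2, MRPL16 had -0.47 without stallion 1 and -0.10 without stallion 2, and MRPS27 had -0.10 without stallion 1 and -0.41 without stallion 2. MRPS23 had -0.26 without stallion 5, and MRPL4 had -0.22 without stallion 10. MRPS18A had 0.26 without stallion 6 and 0.86 without stallion 5, and MRPS18C had 0.25 without stallion 5. Of the paralogs of MRPS18A, MRPS18B ranged from 5.28 in stallion 3 to 6.09 in stallion 7, and MRPS18C from 5.09 in stallion 9 to 6.32 in stallion 5.

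The interaction asked whether the season difference differs between the fertility classes. It subtracts the spring minus autumn difference of the high class from that of the low class. None of the 66 genes passed (limma adjusted p = 1), against 0.00327% of all probe sets. The median was -0.13 over the members, -0.12 over all genes and -0.07 over all probe sets, with 28 positive values (42.4%, against 43.5% of probe sets and 38.5% of all genes) and 38 negative ones. The small-subunit genes had 12 values on either side of 0 (median -0.10), and the 25 large-subunit genes with a bacterial counterpart had 12 positive and 13 negative ones (median -0.04). Among the 17 large-subunit genes without a bacterial counterpart 4 were positive and 13 negative, with a median of -0.43. In the small subunit the median was -0.26 over 10 genes without a bacterial counterpart and 0.08 over 14 with one. The classes were not tested against each other. Intervals were wide, and 8 members (12.1%, against 22.2% of all genes) had a 95% interval within 1 log2 unit of 0 and 56 (84.8%, against 82.2%) within 2.

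Before adjustment, 3 members (4.55%, against 2.3% of probe sets) had a negative interaction at p under 0.05 and none a positive one (against 1.49%). Over all genes these shares were 2.81% and 0.72%. MRPS18A (probe set 15031760) had 6.69, 5.85 and 6.48 in spring and 6.70 and 7.90 in autumn among low-fertility stallions, and 6.68, 6.87 and 6.32 in spring and 5.78 and 6.01 in autumn among high-fertility stallions. Its autumn signals were above the spring ones with low fertility and below them with high fertility, without overlap in either class, although 6.69 in stallion 7 came close to 6.70 in stallion 5, and stallion 6 stood 1.03 above the next array. The interaction was -1.69 (SE 0.54, 95% interval -2.92 to -0.46, limma adjusted p = 1), -1.09 without stallion 6 and -2.29 without stallion 5. Low minus high was 1.41 (SE 0.42) in autumn and -0.28 (SE 0.34) in spring.

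MRPL38 (probe set 14958623) had 6.91, 6.70 and 7.20 in spring and 7.44 and 7.44 in autumn among low-fertility stallions. It had 6.98, 7.28 and 7.43 in spring and 7.09 and 6.73 in autumn among high-fertility stallions. The low-fertility seasons did not overlap and the high-fertility seasons did, and the interaction was -0.82 (SE 0.33, 95% interval -1.58 to -0.07, limma adjusted p = 1). With stallion 9 counted in autumn the interaction of MRPL38 was -0.55. MRPS16 (probe set 14943454), a small-subunit protein whose human gene is mutated in a disorder of mitochondrial translation, had 6.62, 6.10 and 5.69 in spring and 6.73 and 7.20 in autumn among low-fertility stallions, and 6.03, 6.70 and 6.22 in spring and 6.37 and 5.35 in autumn among high-fertility stallions. For MRPS16 too the low-fertility seasons did not overlap and the high-fertility seasons did. Its interaction was -1.29 (SE 0.55, 95% interval -2.52 to -0.05, limma adjusted p = 1), and -0.78 without stallion 2. Without stallions 2, 9 and 10 the interaction of MRPS16 was -0.60.

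Next on the negative side came MRPS35 (-1.0, SE 0.50) and MRPS31 (-0.74, SE 0.37). The positive side held MRPS12 (0.59, SE 0.35), MRPL24 (0.51, SE 0.36), MRPL47 (1.69, SE 1.26), MRPL18 (0.45, SE 0.35) and MRPL20 (0.45, SE 0.37). The value of MRPL47 was 0.40 without stallion 1 and 2.97 without stallion 2, and that of MRPL20 was 0.16 without stallion 1 and 0.74 without stallion 2. With stallion 9 counted in autumn, MRPL47 had 0.22, MRPL18 had 0.165 and MRPS35 had -1.53. MRPL24 had 0.24 without stallion 6 and 0.78 without stallion 5, and MRPL18 had 0.30 without stallion 6. MRPS12 had 0.32 without stallion 2, and MRPS31 had -0.40 without stallion 5. None of these passed the test.

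**Figure D4:**
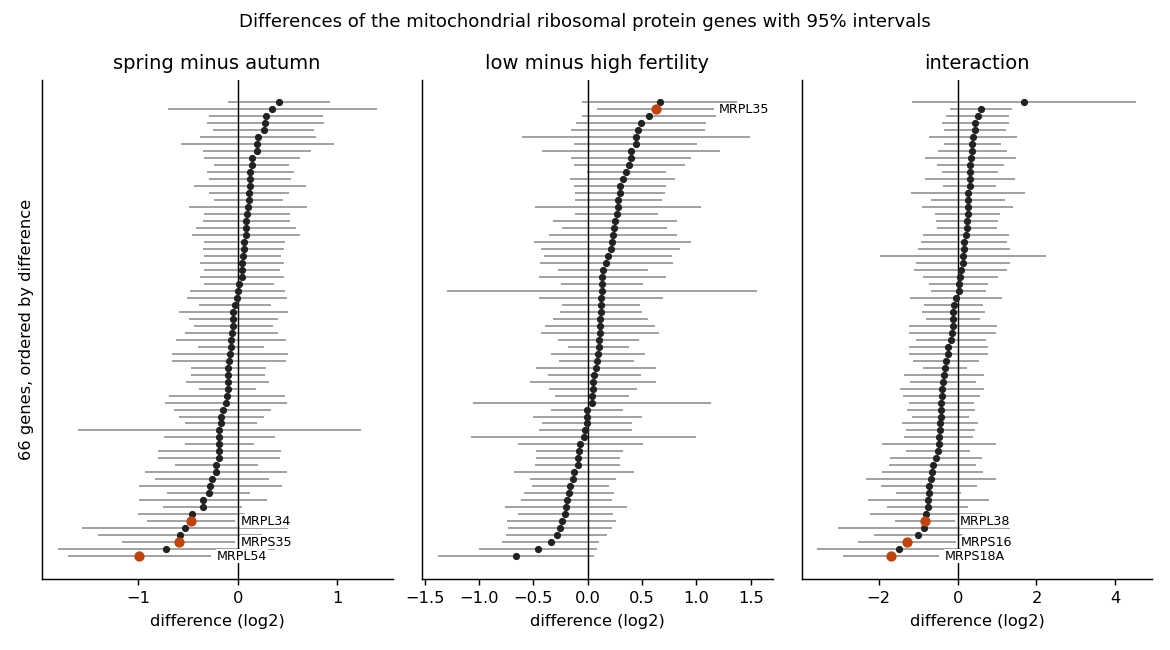
Differences on the log2 scale (horizontal axes) for each of the 66 genes with 95% intervals from limma, ordered by size within each panel. Panels show spring minus autumn, low minus high fertility and the interaction, and genes with an unadjusted p under 0.05 are coloured and named. Most intervals cross 0, and those of the interaction are the widest.

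**Figure D5:**
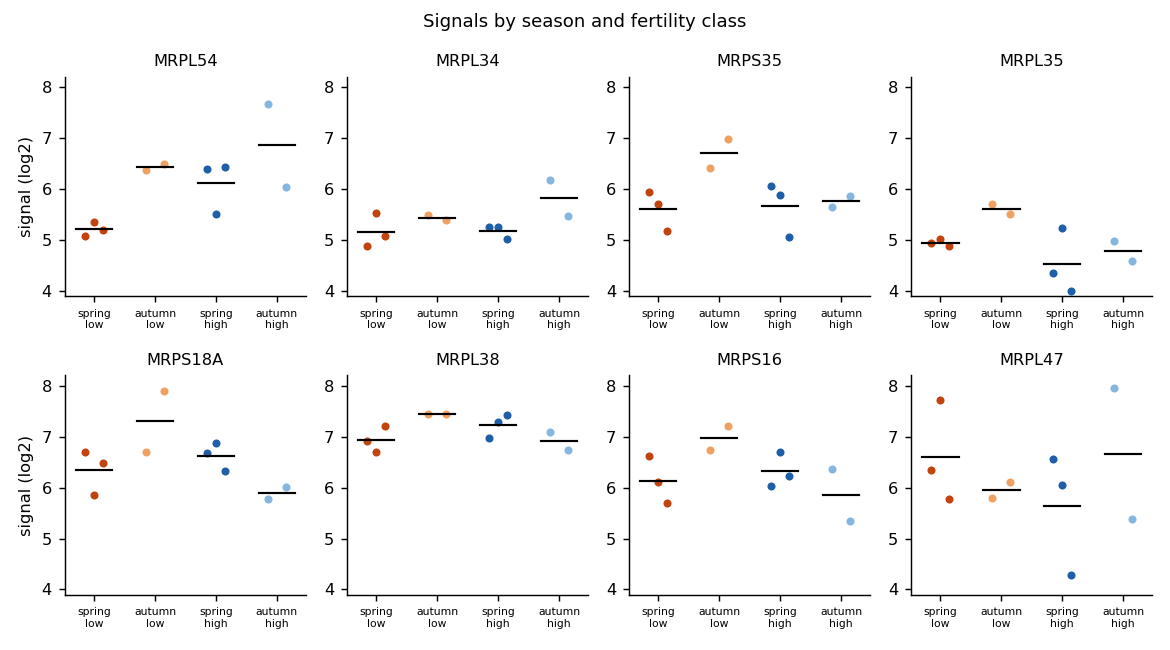
Log2 signals (vertical axes) of 8 genes by season and fertility class (horizontal axes). Each point is a stallion and the bar is the mean of the group, with 3 spring and 2 autumn stallions in each fertility class. MRPS18A, MRPS35 and MRPL35 are higher in the autumn low-fertility stallions than in their autumn high-fertility counterparts, and MRPL47 spreads widely within its groups.

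Within single classes the counts were as small, and no member passed the adjusted threshold. Among low-fertility stallions MRPL54, MRPS18A and MRPS35 had lower means in spring at an unadjusted p under 0.05 (3 members, against 3.34% of probe sets) and none a higher one (against 0.622%), while 0.00654% of probe sets passed the adjusted threshold. Among high-fertility stallions MRPL34 and MRPS12 had lower means in spring (against 2.68% of probe sets) and MRPL51 a higher one (against 1.47%), and 0 probe sets passed. In autumn, MRPS18A, MRPS16, MRPS35 and MRPL50 had higher means with low fertility (4 members, against 2.81% of probe sets) and none a lower one (against 1.42%), and 0.00327% of probe sets passed. In spring no member had a higher (against 1.34%) or a lower mean (against 0.903%) with low fertility at that level, and 0 probe sets passed. Over all genes the unadjusted shares, in the order given, were 4.1%, 0.378%, 1.63%, 1.49%, 3.34%, 0.492%, 1.03% and 0.726%.

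In 8 of the 66 genes (12.1%, against 3.67% of all probe sets and 4.78% of all genes) both autumn low-fertility stallions had higher signals than each of the other 8 stallions. These were MRPL9, MRPL19, MRPL35, MRPL38, MRPS16, MRPS28, MRPS33 and MRPS35, which span both subunits, and the pattern was chosen after the values were seen. MRPL9 had 6.65 and 6.73 in the autumn low-fertility stallions, against 6.35 to 6.58 in the others. MRPS28 had 7.35 and 7.58, against 5.49 to 7.0. The opposite pattern, both below all others, occurred in no member (against 0.713% of probe sets). With arrays centred on their medians the count was 4 (6.06%, against 2.24% of probe sets), and without stallions 2, 9 and 10 it was 9 (13.6%, against 5.16%). With both changes it was 6 (9.09%, against 5.07%). Over all genes these shares, in the same order, were 2.97%, 6.17% and 5.98%. Of the 69 cytosolic ribosomal protein genes, 1 showed the pattern in the uncentred values. Stallion 5 had the highest array median, 5.49, and that of stallion 6 was 5.24, and their part in the pattern was not tested.

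Other genes of mitochondrial translation were read in the same fit, and none passed the test in any of the 3 comparisons. Of 18 listed translation factors 17 were measured, with a season median of -0.13, a fertility median of 0.10 and an interaction median of -0.06. At an unadjusted p under 0.05 the season comparison held 4 of them. A lower mean in spring was seen for 3 (against 3.17% of probe sets and 3.24% of all genes). A higher mean was seen for 1 (against 1.01% and 0.87%). The lower ones were TACO1, an activator of the translation of a cytochrome c oxidase subunit (spring minus autumn -0.53, SE 0.19), GFM2, a factor of ribosome recycling (-0.49, SE 0.17), and MTIF2, an initiation factor (-0.37, SE 0.16), and the higher one was SLIRP, which stabilises mitochondrial messenger RNAs (0.74, SE 0.32). None of the list reached that level in the other two comparisons, where OXA1L, an inner membrane insertase, came first by p (low minus high 0.39, SE 0.23, interaction -0.89, SE 0.45). The 19 of 22 mitochondrial aminoacyl-tRNA synthetases and related genes that were measured had medians of 0.02, 0.05 and -0.14 in the same order. Among them stood FARS2, which charges phenylalanine (spring minus autumn -0.88, SE 0.31), CARS2, which charges cysteine (-0.73, SE 0.32), WARS2, for tryptophan (low minus high -0.19, SE 0.13), and YARS2, for tyrosine (interaction -0.84, SE 0.36).

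All 27 listed assembly genes were measured, with medians of -0.02, 0.07 and -0.21. Of these AFG3L2, a subunit of the protease that matures MRPL32, had an interaction of -1.24 (SE 0.39), and MTG1, a GTPase of large-subunit assembly, had a spring minus autumn difference of -0.40 (SE 0.18) and an interaction of 0.78 (SE 0.37). MPV17L2 had a low minus high difference of 0.26 (SE 0.13). The 5 ribosomal proteins with other names averaged 5.71 for CHCHD1, 5.85 for GADD45GIP1, 5.46 for PTCD3, 5.29 for DAP3 and 4.91 for AURKAIP1, within the range of the members. CHCHD1 had the smallest season p among them (0.35, SE 0.14).

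The 8 genes of mitochondrial transcription had medians of 0.04, 0.08 and -0.12. POLRMT, the mitochondrial RNA polymerase, had a low minus high difference of 0.44 (SE 0.17) and a mean signal of 7.40, and GABPB1, a subunit of a factor that drives nuclear genes for mitochondrial proteins, had a spring minus autumn difference of -0.39 (SE 0.16). The 69 cytosolic ribosomal protein genes had a season median of 0.03 (41 positive, 28 negative), a fertility median of 0.16 (49 positive, 20 negative) and an interaction median of -0.46 (10 positive, 59 negative). The sperm markers had medians of 0.24 (10 positive, 4 negative), 0.16 (12 positive, 2 negative) and -1.14 (0 positive, 14 negative) in the same order. Over all genes 38.5% of the interaction values were positive. Stallions 2, 9 and 10 were lower than all other stallions in 12 of the 14 sperm markers and 30 of the 69 cytosolic genes. None of them was in the autumn low-fertility group, and no medians of these lists without them are given here. The part of the sperm markers in the values of the cytosolic and mitochondrial lists was not tested. Both kinds of ribosomal protein genes were thus without a called gene, and their interaction medians, -0.13 for the mitochondrial and -0.46 for the cytosolic list, were not tested against each other.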

How the data were processed

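The authors deposited log2 signals per probe set, 1 column per stallion, with 2 decimals and no value below 4. Per the submitters' processing notes GCOS 1.1.1 and Affymetrix Expression Console 1.1 were used, with no word on summarisation, background correction or scaling. Between 842 and 2920 probe sets per array sat on the floor of 4, array medians differed, and precision is limited by how few arrays there are. Signal over background could not be read beyond the floor.

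Of 30559 probe sets, 16789 had 1 symbol in the platform's annotation, 343 had several and 13427 were unnamed there. Symbols can be old. Groups came from the season and fertility fields. A mean per group was fitted with limma 3.58.1 in R 4.3.3 (6 residual and 2.96 prior degrees of freedom, two-sided, Benjamini-Hochberg over all probe sets, threshold 0.05), and the script was tested on simulated data. Season is spring minus autumn and fertility low minus high, each averaged over the other factor. The members and gene lists were chosen with earlier results of these data known.

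Genes were named by this rule: in each comparison the 5 members with the smallest unadjusted p per direction, the 6 highest and 6 lowest means, the 5 largest and 5 smallest SDs, the MRPS18 paralogs and up to 2 genes of each comparison list. Others were named where a count of few genes was given or where the values of a pattern were shown, after their values were seen. Alternatives were quantile normalisation, array centring, a filter on dim probe sets, averaged probe sets, no moderation, no interaction term, stallion 9 in autumn, a term for title format, and arrays left out. The term for title format marked stallions 9 and 10. No sequence was used here.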

Additional observations from a re-analysis of the deposited data

How the results depend on the processing

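No member passed the threshold under any of the 20 alternative settings for season and fertility or the 19 for the interaction. Comparisons within single classes had no alternatives. Over the 30 named differences, 585 of 586 alternative values kept their direction and their side of the threshold. The exception was the season difference of MRPL58, -0.0575 without stallions 2, 9 and 10, against 0.26. All 30 were far from the threshold and were picked by p within their direction, so this count does not measure stability. Some settings, such as no moderation or averaging the 1 probe set of each member, also could not change the difference itself. Sizes moved, as in the interaction of MRPL47, from 0.22 with stallion 9 in autumn to 2.97 without stallion 2. The median level was 6.04 over the 52 members left by requiring a mean of at least 5, which removes the dim ones, and 5.61 to 5.72 with single stallions left out. With single stallions left out, the median difference for season ran from -0.07 (without stallion 2) to 0.001 (without 9), fertility from 0.05 (without 2) to 0.17 (without 1), and the interaction from -0.29 (without 1) to -0.02 (without 2). With arrays centred they were 0.02, 0.06 and -0.04. The season median was 0.02 with stallion 9 in autumn and 0.0275 with the term for title format. Members with an unadjusted p under 0.05 numbered 1 to 4 for season, 0 to 5 for fertility and 1 to 6 for the interaction. The filter on dim probe sets, which removes MRPL35, gave the 0 for fertility. Without stallion 6, 18, 13 and 15 probe sets passed in the 3 comparisons, against 1 each with all stallions, and 0 passed in each without stallions 2, 9 and 10, where the residual degrees of freedom are fewer. Where the cause of a shift is not stated, it was not tested. No paired analysis was possible because each stallion number occurs once.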

Other observations

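Of the variance of a member over the 10 arrays, a median of 29.0% lay between the 4 groups, against 25.8% for all genes and 19.5% for the cytosolic ribosomal protein genes. The highest shares were 71.5% for MRPL9, the member with the smallest SD, 66.4% for MRPL54 and 62.4% for MRPS35. With 10 arrays in 4 small groups, a large share lies between groups even where the groups do not differ. The highest shares were also picked after the values were seen. None of these shares thus shows an effect of season or fertility, and none was tested.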
